A study of Chenopodium quinoa with 9 samples.

Results

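Leaf and root of quinoa (Chenopodium quinoa) were compared in the 6 leaf and root libraries out of the 9 libraries of the series, 3 per organ, chosen by the tissue that the labels give. The leaf group and the root group came from plants of a yellow bitter type, sown in a field at Chengdu University in spring 2019 and sampled in August of that year, with no treatment named for either group. Of 30 plants, 10 were mixed for each biological replicate, so that every library describes a pool and not a plant. The labels' protocols take leaf and root from the same pools, and the replicate number was taken here to name the pool, which the values did not show. The comparison asked which genes set the photosynthetic organ apart from the underground one. Of the 54238 genes in the deposited tables, 35303 had enough counts in the 6 libraries to be tested, 10575 had counts but too few, and 8360 had none.

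Leaves fix carbon in chloroplasts, and in most plants the messenger RNA of a mature leaf is dominated by a small number of nuclear genes for carbon fixation and light harvesting. Roots take up water and mineral ions, hold the plant in the soil and meet its microbes. Bitter quinoa also makes triterpenoid saponins, the bitter compounds of the seed coat, and quinoa is an allotetraploid whose subgenomes carry near-identical copies of many genes. None of this background could be tied to single genes here: the files do not pair the identifiers with names, and the RefSeq gene table (assembly ASM168347v1) holds 0 of the 54238. The labelled organs were therefore not checked against marker genes, no function is stated for any gene, and 4 genes that differed and 2 that did not pass the test are named by identifier. In tissue pieces, fewer cells of a type and less RNA per cell cannot be told apart.

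The total count was 17554727 to 22035718 per leaf library and 16112021 to 18253046 per root library. Levels on the log2 CPM scale (counts put on a common scale with TMM factors, which correct for differences in composition) correlated over genes at r = 0.931 to 0.953 between leaf libraries and at 0.946 to 0.976 between root libraries, against 0.477 to 0.552 between a leaf and a root library. These coefficients describe the libraries, since genes are not independent replicates. The spread between pools was wider in leaf. The median SD of log2 CPM over 3 libraries was 0.32 in leaf and 0.24 in root, and the common biological coefficient of variation in edgeR was 0.351 for the leaf libraries and 0.247 for the root libraries. Among genes averaging at least 10 CPM in the organ, 135 of 17033 in leaf and 28 of 16009 in root differed at least 10-fold between their highest and lowest library. The 135 leaf genes had their highest value in replicate 1 for 43 genes, in replicate 2 for 45 and in replicate 3 for 47. No leaf library alone thus held the highest values, but the library with the lowest value was not counted. Leaf replicate 2 stood somewhat apart in correlation over all genes. It had r = 0.933 with replicate 1 and 0.931 with replicate 3, against 0.953 between replicates 1 and 3. Its part in the wider leaf spread was not tested. Of the 28 root genes, 12 were highest in root replicate 1, 0 in replicate 2 and 16 in replicate 3.

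A small number of genes filled the leaf libraries to a greater extent than the root libraries. The 100 highest genes of each library held 35.5%, 35.0% and 34.8% of the summed FPKM (a count divided by gene length and by library size, which gives a level per length) in leaf replicates 1 to 3, against 22.4%, 20.8% and 28.8% in root replicates 1 to 3. All leaf libraries lay above all root libraries, by 11.1 percentage points between the means (35.1% ± 0.319 in leaf and 24.0% ± 4.23 in root, SD, n = 3 each). The exact permutation test gave p = 0.10 (two-sided), the smallest that 3 against 3 libraries allow, and with the pools kept as pairs no p below 0.25 was possible. Root replicate 3 stood nearest to leaf. Over the 10 highest genes alone, the share was 13.6%, 15.0% and 13.4% in leaf and 8.99%, 7.43% and 13.9% in root, and the organs overlapped through that library (exact permutation p = 0.30, two-sided). A summed FPKM share of 50% was reached with 365, 456 and 371 genes in leaf, against 1271, 1366 and 799 genes in root. Even the root library with the fewest needed more genes than any leaf library.

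**Figure D1:**
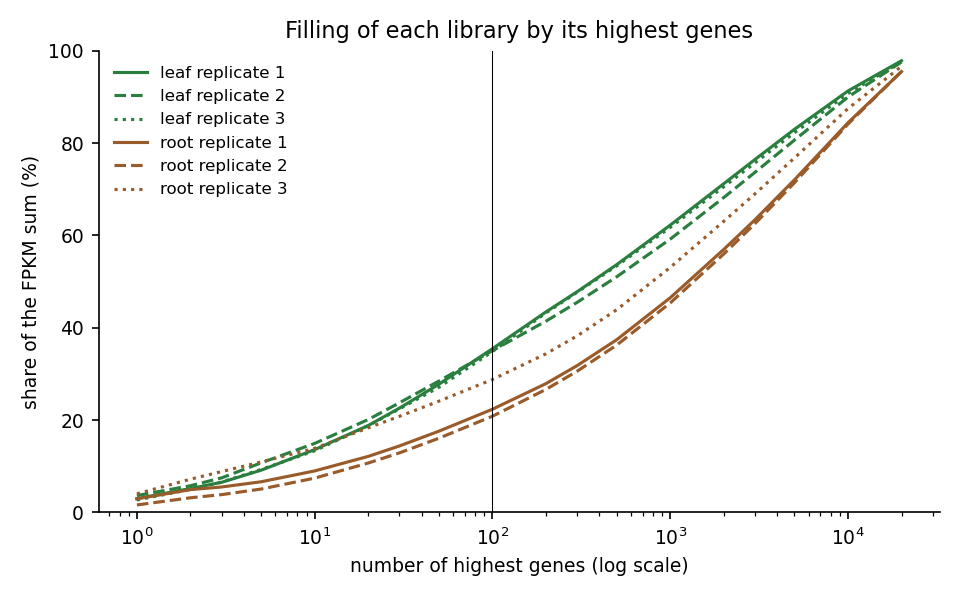
Share of the summed FPKM of a library (%, vertical axis) held by its highest genes (number of genes, horizontal log axis), as 1 line per library, with leaf in green and root in brown and a vertical line at 100 genes. At 100 genes the leaf lines lie at 34.8% to 35.5% and the root lines at 20.8% to 28.8%, with root replicate 3 the highest of the root lines.

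How many genes appeared abundant depended on the scale. At least 100 FPKM was reached by 1666, 1460 and 1548 genes in the leaf libraries and by 1027, 994 and 1231 in the root libraries. The deposited FPKM values summed to 1112504 to 1278482 per leaf library and to 687883 to 855017 per root library. When each library was brought to the same sum (1000000), a level of at least 100 on that scale was reached by 1293, 1302 and 1259 genes in leaf and by 1533, 1557 and 1446 in root, which turned the order round.

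Among the highest genes, those of leaf were mostly called higher in leaf. Those of root were called in either direction about as often as genes in general (50.1%), but lower in leaf more often, in 38 of 100 against 24.5% of all genes tested. Genes were called where edgeR's quasi-likelihood test over all 35303 genes gave an adjusted p (Benjamini-Hochberg) below 0.05, by which leaf exceeded root for 25.5% of the tested genes and fell short of it for 24.5%. Of the 100 genes with the highest mean FPKM in leaf, 81 were called higher in leaf, 3 lower and 16 not called. Of the 100 highest in root, 17 were called higher in leaf, 38 lower and 45 not called. These lists were picked on the same levels that the test compares, so the counts describe them and support nothing further. Both lists held 33 genes in common, and these took 10.3% ± 1.80 of the summed FPKM in leaf and 9.49% ± 2.14 in root (SD, n = 3 each). The 67 genes on the leaf list alone took 24.0% ± 2.10 in leaf and 0.716% ± 0.0772 in root, while the 67 on the root list alone took 2.69% ± 0.427 in leaf and 14.3% ± 2.24 in root. The 67 genes of the leaf list alone thus stood far higher in leaf than in root, with a median log2 fold change of 8.36. That is a ratio and does not show absence from root, where AUR62010822, for 1, averaged 430 FPKM. The 67 own genes of the root list had a median of -1.20. The lists ended at unlike levels, with a lowest mean of 1355 FPKM on the leaf list and 549 FPKM on the root list. A gene on the leaf list alone was thus higher in leaf by construction. A gene on the root list alone could be higher in either organ, and 2 of these were called higher in leaf. The medians of the 2 lists are therefore not on a like footing.

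The 2 called genes with the highest leaf levels, at least 4-fold higher in leaf and higher in all 3 pools, were AUR62010822 and AUR62002998. AUR62010822 had 28043, 40660 and 32634 FPKM in leaf replicates 1 to 3, against 613, 263 and 415 FPKM in root replicates 1 to 3. The lowest leaf library was far above the highest root library, though the gene was well above detection in root too. Its log2 fold change was 6.36 (SE 0.50, adjusted p = 8.44e-05, edgeR), and in leaf it alone took 2.19%, 3.65% and 2.69% of the summed FPKM. AUR62002998 had 38180, 23620 and 17359 FPKM in the leaf libraries, against 1.01, 1.24 and 3.45 FPKM in the root libraries. Leaf varied by more than a factor of 2 between pools and root was near its detection limit, with 5, 7 and 17 counts. The log2 fold change was 13.82 (SE 0.81, adjusted p = 3.2e-05, edgeR). The ratio of leaf to root was 14289, with 9949 to 21336 as the exact Poisson 95% interval from the 29 root counts, which covers counting error only. Root replicate 3 had most of these counts, and without it the log2 fold change was 14.51 (adjusted p = 0.000224, edgeR).

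The 2 called genes with the highest root levels, at least 4-fold lower in leaf and lower in all 3 pools, were AUR62029016 and AUR62025161. AUR62029016 had 0.270, 0 and 0 FPKM in leaf replicates 1 to 3, against 21018, 11164 and 34460 FPKM in root replicates 1 to 3. It had 1 count over the 3 leaf libraries, so in leaf it was at the edge of detection, and in root it was the highest gene of all by mean FPKM. Root exceeded leaf 274548-fold, with an exact Poisson 95% interval of 49276 to 10844081 from the single leaf count (adjusted p = 3.07e-05, edgeR). Without leaf replicate 1, which held that count, leaf had 0 counts and root was at least 33822-fold higher, against 3 counts per library. AUR62025161 had 2.97, 1.43 and 12.2 FPKM in the leaf libraries, against 14264, 10651 and 27086 FPKM in the root libraries. The groups were again far apart, with 75 counts over the 3 leaf libraries. The log2 fold change was -11.53 (SE 1.08, adjusted p = 0.000185, edgeR), and it was -12.90 without leaf replicate 3, the highest leaf library (adjusted p = 0.000254). Both genes had a length of 273 bp, as worked out from count and FPKM. Their highest root value was in replicate 3 and their lowest in replicate 2. Together they took 4.94%, 3.17% and 7.20% of the summed FPKM of root replicates 1 to 3. Whether they shared reads was not tested. All 4 genes are short, at 222 bp, 255 bp, 273 bp and 273 bp, against a median of 1483 bp over the genes tested, and FPKM divides by that length.

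**Figure D2:**
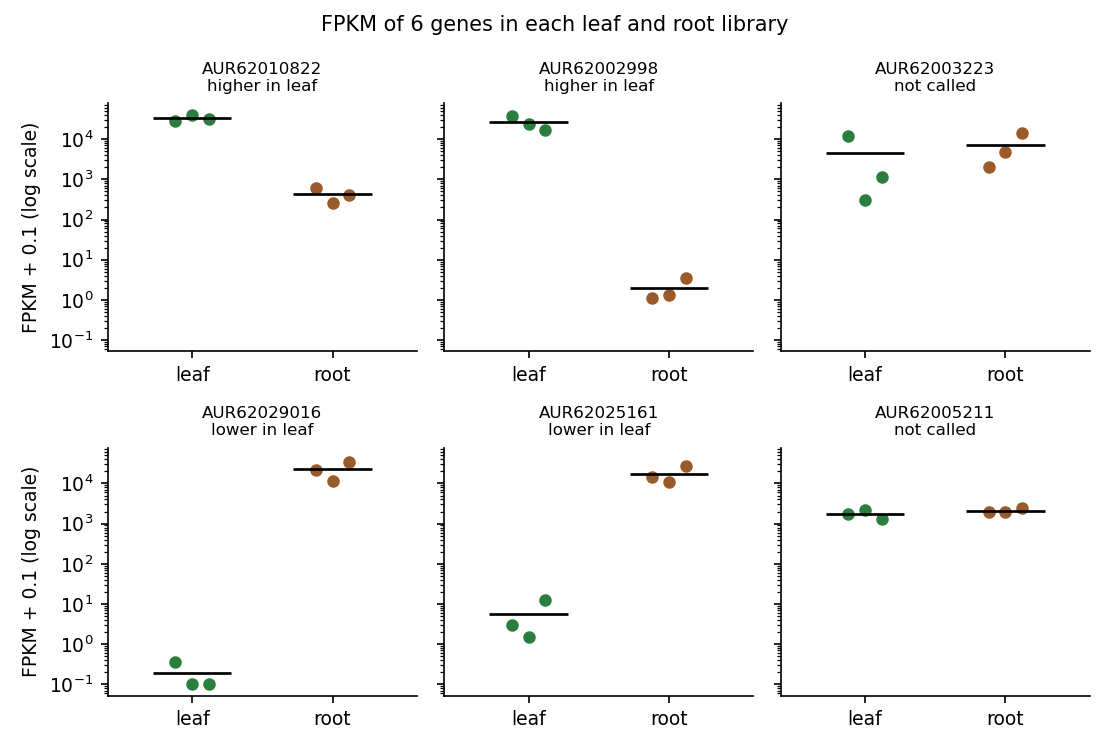
FPKM plus 0.1 (vertical log axis) of 6 genes in each of the 3 leaf libraries (green, left) and the 3 root libraries (brown, right), with a point per library and a line at the mean. The organs stand apart by orders of magnitude for the 4 called genes, whereas AUR62003223 spreads over 298 to 12032 FPKM in leaf and 2060 to 14137 FPKM in root, and AUR62005211 stays between 1290 and 2428 FPKM in all 6 libraries.

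High level alone did not make a call. AUR62003223, picked after its values were seen as the highest gene that was not called, had 12032, 298 and 1154 FPKM in leaf, against 2060, 4727 and 14137 FPKM in root. The libraries of both organs overlapped, and the spread within an organ exceeded the difference between the means (log2 fold change -0.57, SE 1.27, adjusted p = 0.735, edgeR). AUR62005211 was picked, also after its values were seen, as the steadiest of the uncalled genes that were among the 100 highest of both organs. It had 1707, 2210 and 1290 FPKM in leaf, against 1909, 1909 and 2428 FPKM in root, with a log2 fold change of -0.20 (SE 0.31, adjusted p = 0.619, edgeR). Its 6 values lay close together, with an SD of 0.30 on the log2 CPM scale. The first gene missed the threshold with a wide spread between pools and the second with a narrow one, and missing it does not show that leaf and root were equal.

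Over all genes, leaf and root differed in 17677 of the 35303 genes tested (50.1%), of which 9014 (25.5%) were higher and 8663 (24.5%) lower in leaf (edgeR, adjusted p below 0.05). Leaf libraries lay entirely above root libraries in CPM for 30.2% of the tested genes and entirely below them for 31.7%, 61.8% in all. Of the called genes, 8902 of those higher and 8613 of those lower had no overlap between organs, and 4317 genes without overlap were not called. The direction was the same in all 3 pools for 17620 of the called genes (99.7%), for 7576 of the 17626 uncalled genes (43.0%) and for 71.4% of all tested genes. For called genes this follows largely from the lack of overlap, whatever the pairing of libraries, and is no further evidence. Pools gave like numbers, with 8082, 7590 and 7947 genes at least 2-fold higher and 8186, 7509 and 7853 at least 2-fold lower in leaf than in root of pool 1, 2 and 3.

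The balance of directions depended on the scaling of the libraries. TMM factors were 0.780, 0.872 and 0.775 in leaf and 1.27, 1.29 and 1.16 in root, and with them the median of all log2 fold changes was -0.01 and 51.0% of called genes were higher in leaf. With upper-quartile factors the median moved to -0.24 and 39.6% of called genes were higher, 7403 against 11270 lower. With total counts and no factors, tried after the TMM factors had been seen, the median was -0.62 and 25.9% were higher, 5743 against 16469 lower. The library sizes behind the authors' FPKM values were 0.773 to 0.857 times the total count in leaf and 1.10 to 1.21 times in root, so those values carry a scaling close to TMM. A scaling shifts all genes nearly alike. Below, medians of gene classes by level and by identifier are given relative to the median of all genes. Shares of genes called higher or lower are under TMM factors unless another scaling or test is named, and their balance could turn with the scaling.

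**Figure D3:**
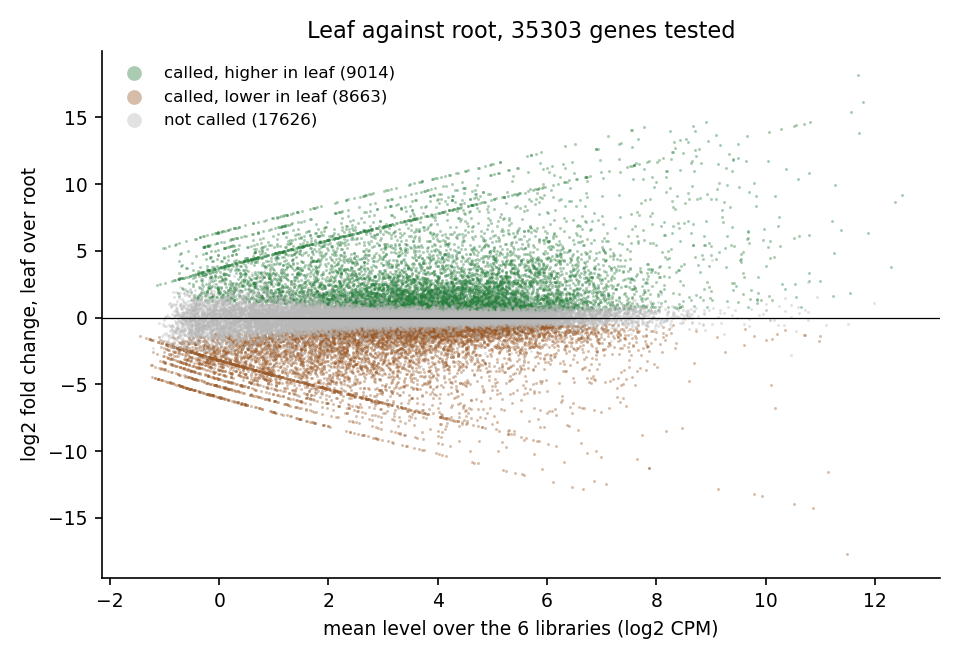
Log2 fold change of leaf over root (vertical axis) against the mean level over the 6 libraries (log2 CPM, horizontal axis), with 1 point per tested gene, green where called higher in leaf, brown where called lower and grey where not called. Genes with 0 counts in all 3 libraries of an organ are drawn at the bound that 3 counts per library allow, and the slanted lines of points are genes with 0 or few counts in an organ.

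Differences were often large. The median called gene was 3.75-fold higher in leaf, with quartiles of log2 fold change at 1.06 and 3.70, or 3.46-fold lower, with quartiles at -3.39 and -0.98. Fold changes here take a gene with 0 counts in all 3 libraries of an organ at the bound that 3 counts per library allow, which applied to 392 genes higher and 492 genes lower in leaf. At least 2-fold differences were reached by 6950 of the higher (19.7% of all tested) and 6423 of the lower genes (18.2%), and 4304 called genes (24.3% of the calls) differed by less. A further 1469 genes had a fitted difference of at least 2-fold and were not called. At least 100-fold was reached by 674 genes higher and 341 lower in leaf, and at least 1000-fold by 162 higher and 34 lower. By the fitted values, with no bound, the numbers were 924 higher and 766 lower at 100-fold and 347 and 179 at 1000-fold, so the gap between the directions at 100-fold came in large part from the bounds. Genes called higher in leaf were at a median of 15.9 FPKM in leaf and 3.72 FPKM in root, and those lower in leaf at a median of 1.84 FPKM in leaf and 8.25 FPKM in root. These medians are on the deposited FPKM scale, which sums higher in leaf than in root.

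**Figure D4:**
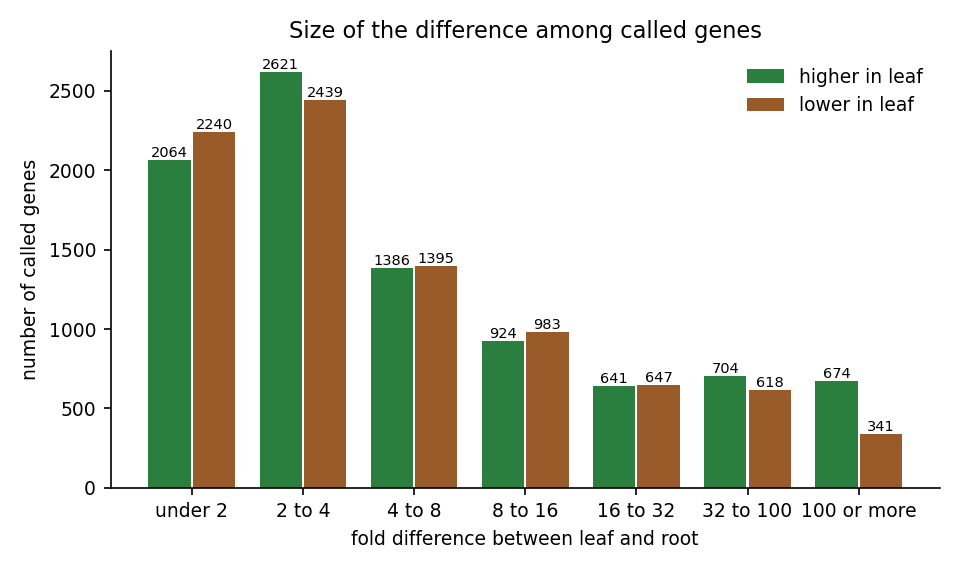
Number of called genes (vertical axis) by size of the fold difference between leaf and root (horizontal axis), with genes higher in leaf in green and genes lower in leaf in brown. The class of 2 to 4-fold is the largest in both directions (2621 higher and 2439 lower), and the class of 100-fold or more holds 674 higher and 341 lower genes.

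The called genes carried most of the leaf transcript pool. Genes called higher in leaf took 64.8%, 60.9% and 67.6% of the summed FPKM in leaf replicates 1 to 3, against 15.6%, 15.7% and 15.0% in root replicates 1 to 3. Genes called lower in leaf took 5.15%, 6.72% and 5.18% in leaf, against 38.7%, 37.1% and 37.2% in root. Uncalled genes took 29.6% ± 2.61 in leaf and 46.6% ± 1.10 in root (SD, n = 3 each), so root held more of its pool in genes that did not pass the test. The 4329 genes at least 4-fold higher in leaf by the fitted value made up 48.8% ± 4.52 of the leaf pool and 3.70% ± 0.0650 of the root pool, and the 3997 at least 4-fold lower made up 0.706% ± 0.0942 of the leaf pool and 19.8% ± 1.67 of the root pool. The genes were chosen on these libraries, so the shares give the size of the sets and are no further evidence of the difference.

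Most genes with a level of note were present in both organs. At least 1 FPKM in all 6 libraries was found for 24402 genes, in all leaf libraries for 27398 and in all root libraries for 28657. A smaller set of 595 genes had at least 1 FPKM in all 3 leaf libraries and under 0.1 FPKM in all 3 root libraries, and 530 genes were at this level in root with under 0.1 FPKM in all leaf libraries. On the deposited FPKM scale the leaf set reached higher levels, with a median of 9.09 FPKM and 58 genes at 100 FPKM or more. The root set had a median of 4.65 FPKM and 20 such genes. That scale sums higher in leaf than in root, which affects these levels and the limits of 1 and 0.1 FPKM. The sets were not compared at a common sum. The leaf set took 5.98%, 4.45% and 6.82% of the summed FPKM in leaf, against at most 0.000967% in a root library, and the root set took 3.06%, 2.24% and 2.25% in root. In the other organ, 365 of the 595 and 340 of the 530 genes had 0 counts in all 3 libraries, which limits their level there to 3 counts per library and does not show absence. In the stem libraries, which were outside the comparison, 214 genes of the leaf set and 56 of the root set had at least 1 FPKM in all 3 libraries.

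Genes of high level were called toward leaf more often, and genes of low level toward root. When the tested genes were ordered by mean FPKM over the 6 libraries and cut into 5 bins, 15.7% of the lowest bin (0.0562 to 1.91 FPKM) were higher and 30.8% lower in leaf, against 38.5% higher and 19.9% lower in the highest bin (from 21.2 FPKM). The bins between moved step by step, from 19.5% higher and 25.7% lower in the second bin through 23.7% and 23.8% in the third to 30.2% and 22.4% in the next. Among all genes tested the values were 25.5% and 24.5%. Relative to the median of all genes, the median log2 fold change was -0.43 in the lowest bin and 0.34 in the highest. With the bins kept as cut, a change of scaling shifts all genes nearly alike and leaves this distance as it is by construction. The bins were cut on the deposited FPKM, which sums higher in leaf than in root. They were not cut again under another scaling, so whether the trend depends on the scaling of the levels was not tested. The sign of the highest bin itself turned with total counts, where its median was -0.28 and 40.2% of its called genes were higher in leaf. Precision also moved with depth. Genes with 31 to 291 counts over the 6 libraries were called in 46.1% of cases with a median SE of 0.56, and genes with at least 3411 counts in 56.6% with a median SE of 0.21, and the part of depth in the trend of direction was not tested. The count filter came before the TMM factors, on total counts, and a gene could pass it through a single organ. Low-level genes may thus have entered unequally from leaf and root, and the part of the filter in the trend was not tested either.

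**Figure D5:**
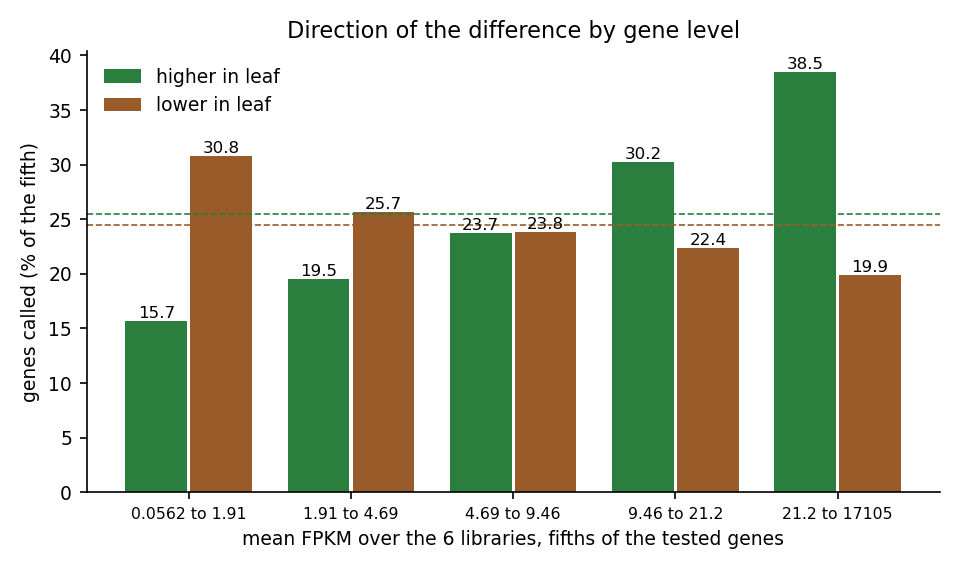
Share of genes called higher in leaf (green) and lower in leaf (brown), in % of the genes of a bin (vertical axis), for 5 bins of mean FPKM over the 6 libraries (horizontal axis); dashed lines show the shares over all genes tested, 25.5% and 24.5%. The share higher in leaf is 15.7% in the lowest bin and 38.5% in the highest, and the share lower is 30.8% and 19.9%.

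Genes whose identifier does not begin with AUR62 (non-AUR62 genes) leaned toward root. Of 5495 tested, 970 (17.7%) were higher and 1592 (29.0%) lower in leaf, against 27.0% higher and 23.7% lower of the 29808 AUR62 genes. Their median log2 fold change lay -0.31 from that of all genes. The balance among AUR62 genes turned with upper-quartile factors, to 6595 called higher and 9293 lower in leaf. Non-AUR62 genes were also of lower level, with a median of 2.55 FPKM against 7.97 FPKM for AUR62 genes, and 2233 of them fell in the lowest level bin. Within that bin, 15.0% of non-AUR62 genes were higher and 32.3% lower, against 16.0% and 30.1% of AUR62 genes, and in the second bin 15.1% and 28.3% against 20.8% and 24.9%. In the highest bin, 34.1% of the 334 non-AUR62 genes were higher and 25.1% lower, against 38.8% and 19.7% of AUR62 genes. In every bin a smaller share of non-AUR62 than of AUR62 genes was higher in leaf and a larger share lower, though the lower shares were 23.9% and 23.8% in the third bin, and none of these shares was tested.

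Gene length was less related to direction. In the shortest of 5 length bins (105 to 855 bp), 24.9% of genes were higher and 25.4% lower in leaf, and in the longest (2463 to 16681 bp) 22.0% and 24.6%. The bins between had larger shares higher in leaf, at 27.4%, 27.2% and 26.2%, with 23.6%, 24.4% and 24.7% lower. The size of the difference moved more, with a median absolute log2 fold change of 0.94 in the shortest bin and 0.61 in the longest. These medians are over all tested genes, called or not. Short genes were also of higher level, with a median of 11.1 FPKM against 4.58 FPKM in the longest bin, so length and level were not separated here.

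Testing the FPKM values in place of the counts gave nearly the same genes. Limma on log2(FPKM + 1) called 8453 genes higher and 9750 lower in leaf, and 16856 genes were called in the same direction by both, which is 95.4% of the edgeR calls and 92.6% of the limma calls. FPKM values are the same counts divided by length and library size, and limma was given the genes that passed the filter for edgeR. Much of this overlap thus follows by construction. The balance moved, with 46.4% of the limma calls higher in leaf against 51.0% of the edgeR calls. DESeq2 called 9397 higher and 9264 lower and shared 17606 calls. When the stem libraries were added to the fit, 13832 genes were called, of which 13464 were among the calls from leaf and root alone, and the common biological coefficient of variation was 0.457, against 0.301 with leaf and root alone. Over all 18 fits, 9761 genes (55.2% of the calls) were called in the same direction in each, 4989 higher and 4772 lower in leaf.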

How the data were processed

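Per the file headers, the authors deposited raw counts of reads for each gene, and FPKM values in a second table. The submitters' processing notes name Bowtie2 2.0.6 and TopHat2 2.0.12. How reads were counted, on which build, with or without strand, and how reads with several matches were treated is not given in the sources used, so values of near-identical gene copies and of overlapping or antisense genes are uncertain. All columns belonged to a sample of the series (0 others).

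Counts of the 6 libraries were filtered with filterByExpr, scaled with TMM factors and tested with the robust quasi-likelihood test of edgeR 4.0.16 in R 4.3.3, with organ as the only factor. SEs are the fold change divided by the root of F. Gene lengths came from count divided by FPKM, whole within 0.01 bp for 100.0% of 45878 genes. FPKM values are authors' levels, used for levels and, on the log2(FPKM + 1) and log2(FPKM + 0.1) scales, for limma 3.58.1. DESeq2 1.42.0 left 52 genes without an adjusted p. The edgeR, limma and DESeq2 steps were run on simulated counts in which a small part of the genes was changed, with limma on scaled counts and not on FPKM. In the data 50.1% of the genes tested were called, so that run does not bear on the scaling or the balance of directions here. Exact permutation tests used scipy 1.17.1. An organ's libraries were separate pools, and p-values thus rest on the spread between pools. No library looked like a second deposit of another, with differences beyond counting noise (chi-square over degrees of freedom 11.3 to 96.6).

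Named genes were the 2 per direction with the highest mean FPKM in the higher organ among genes called, at least 4-fold different and of the same direction in all 3 pools. Lists of leaf, root and saponin genes and of cell type markers, written as product names, could not be applied to the identifiers. Comparisons, classes and lists were chosen with earlier results of these data known. Libraries with the same number were treated as pairs because the protocols take both organs from the same pools; the labels do not say that the number names the pool. Deviations of same-numbered libraries from their organ means correlated over genes at -0.044, 0.067 and -0.099, with 0 of 3 above 0.1, so the values did not show the pairing. It was used as a block in an alternative fit. Intervals and bounds cover counting error only.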

Additional observations from a re-analysis of the deposited data

How the results depend on the processing

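Calls and directions of the 4 named genes held under all 17 alternatives each, with the highest adjusted p at 0.00752 (AUR62002998 with all 9 libraries, edgeR). Their sizes moved more: log2 fold changes ran from 5.76 to 6.67 for AUR62010822, 13.17 to 14.51 for AUR62002998, -19.80 to -14.18 for AUR62029016 and -12.90 to -11.04 for AUR62025161. The value of -19.80 was fitted with 0 leaf counts and depends on the prior count, and -14.18 came with a pseudocount of 1 FPKM. Counts of called genes stayed within 1.5 times of the values given under RLE and upper-quartile factors, without a filter, with at least 1 CPM in 3 libraries, DESeq2, limma on log2(FPKM + 1) and log2(FPKM + 0.1), with at least 1 FPKM in 3 libraries, with all 9 libraries and with the replicate block. The block gave 8061 genes higher and 7505 lower, 6651 and 6037 of them at least 2-fold, and changed no call of a named gene. Total counts with no TMM factors, added after the data were seen, gave 5743 higher and 16469 lower, and 11662 at least 2-fold lower; the shift of the median of all genes that this scaling makes is part of its construction. Leaving out each library gave 7064 to 9565 higher and 6695 to 9299 lower, 6307 to 7324 at least 2-fold higher and 5673 to 7009 at least 2-fold lower. It gave 647 to 750 genes in leaf alone, 567 to 735 in root alone, and a difference of 9.54 to 13.5 percentage points in the share of the 100 highest genes. Fewer libraries ask less of the genes found in an organ alone, which by itself raises their number. Asking for 0.5 or 2 FPKM instead of 1 gave 827 or 334 genes in root alone, as a lower or higher limit does by construction, and 752 or 436 in leaf alone. The share of the 100 highest genes in raw counts differed by 7.51 percentage points (exact permutation p = 0.10). Depth limits what can be said of genes with 0 counts in an organ, whose level there is known only to lie under 3 counts per library.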

Other observations

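Genes with neighbouring identifier numbers differed between leaf and root in the same direction somewhat more often than genes farther apart. Among 21821 pairs of tested AUR62 genes with consecutive numbers, 5778 had both members called, and 57.8% of these pairs had the same direction. At a distance of 2 numbers the share was 53.8%, at 5 numbers 50.5%, at 10 numbers 49.7% and at 100 numbers 49.7%. The correlation of log2 fold changes over the consecutive pairs was weak (Pearson r = 0.14, Spearman rho = 0.10, given as a description over pairs that share libraries and in part genes). Whether the numbers follow the genome and whether such pairs share reads was not tested.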
